A study of Mus musculus with 3 samples.

Results

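The 35 genes described here encode proteins that acidify, fill or enclose the lysosome. They comprise 16 genes of the vacuolar proton pump (V-ATPase), 13 lysosomal hydrolases, 5 lysosomal membrane proteins and Grn, the precursor of the granulins. They were taken as a list of symbols chosen for function, with earlier results of these data known, and all 35 were found among the 55536 annotated genes of the tables. The series measured ribosome-depleted RNA of the chromatin fraction, which holds transcripts that are still being made or have not left their gene, in primary macrophages grown from the bone marrow of C57BL/6J mice. All libraries were from cells given lipid A, the endotoxin moiety that activates Toll-like receptor signalling, at 100 ng/ml for 20 min. There was 1 group of 3 libraries, replicates 1, 2 and 3, made from 1000, 250 and 500 ng of RNA, and no untreated group, so levels are described and no response to lipid A can be read from them. The labels give the libraries separate biosamples and are silent on whether separate animals were used, so the spread between them may be partly technical.

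The V-ATPase is a rotary pump. Its cytosolic V1 sector splits ATP and turns a stalk, and the membrane V0 sector carries protons into the lumen as its ring rotates. The low pH lets hydrolases break down proteins, glycans and lipids, while heavily glycosylated membrane proteins line the organelle. In macrophages, which take up particles and dead cells, lysosomes are prominent, and many of these genes are targets of TFEB and its relatives, which bind the palindrome CACGTG.

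Levels are in TPM, a unit that corrects for transcript length and library total, and a gene is called detected at 1 TPM or more in every library. Expected counts per library in the gene tables came to 16317439 in replicate 1, 16245280 in replicate 2 and 12439931 in replicate 3. All 10 macrophage markers examined were detected, with a median of 86.1 TPM. None of the markers of T cells (4), B cells (4), neutrophils (6), fibroblasts (5), dendritic cells (4), mast cells (3) or red cells (4) was detected, and their summed levels per list and library lay between 0 and 1.81 TPM. In a second set of transcript tables, quantified by another method, 1 T cell, 1 fibroblast and 1 dendritic cell marker were detected, and the T cell marker Cd3d averaged 13.1 TPM there, against 0 TPM in the gene tables. In bulk RNA, fewer cells with a transcript and less RNA per cell cannot be told apart.

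The listed lysosomal genes were well represented on chromatin. Of the 35 members, 34 were detected, and Smpd1 was the exception. The same share among 22028 protein-coding genes was 40.6%. The median member had 44.0 TPM, against 9.07 TPM for the 8942 detected protein-coding genes, and 24 members lay in the highest 10% of all protein-coding genes. Their means covered a wide range: 6 members lay above 100 TPM, 23 between 10 and 100 TPM and 6 under 10 TPM. Together they made up 1.01% of the TPM of protein-coding genes.

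The order of the 3 class medians depended on the setting. The proton pump had a median of 45.7 TPM, with library medians of 36.9, 42.0 and 53.9 TPM in replicates 1, 2 and 3 (SD 8.72, n = 3). The hydrolases had a median of 40.9 TPM, with library medians of 31.8, 34.1 and 56.8 TPM (SD 13.8, n = 3). The membrane proteins had a median of 55.0 TPM, with library medians of 43.4, 44.4 and 74.7 TPM (SD 17.8, n = 3). Replicate 3 had the highest median of each class, and the classes overlapped across libraries. In the second tables the pump median was 71.2 TPM, against 49.0 TPM for the hydrolases and 64.1 TPM for the membrane proteins. Without members that overlap another gene or have a named pseudogene, a setting added after seeing the data, the medians were 21.03 TPM for the pump, 42.5 TPM for the hydrolases and 61.3 TPM for the membrane proteins. For the pump this leaves out Atp6v0a1, Atp6v1b2 and Atp6v0b, the highest by mean TPM, and also Atp6v0c, Atp6v1e1 and Atp6v1h. The genes that overlap Atp6v0a1 and Atp6v0b had 0 counts themselves.

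Within a library, where differences in scaling cancel, class medians were compared as log2(TPM + 0.1). The pump lay 0.21, 0.30 and -0.08 from the hydrolases in replicates 1, 2 and 3, so the direction was not shared by the libraries. Over the libraries this difference was 0.16, and -1.02 without the overlapped members. The pump minus membrane protein difference was -0.23, -0.08 and -0.47. Membrane proteins lay 0.45, 0.38 and 0.39 above the hydrolases (0.41 ± 0.04, SD, n = 3). That last difference had the same direction in 3 of 3 libraries, but it was 0.04 with counts per kb of merged exons in place of TPM. The pump minus membrane difference of medians, -0.27 over the libraries, was 0.15 in the second tables. Flipping signs exactly among 3 libraries gives p = 0.25 at the lowest, and genes of a class are not replicates, so no test was made.

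**Figure D1:**
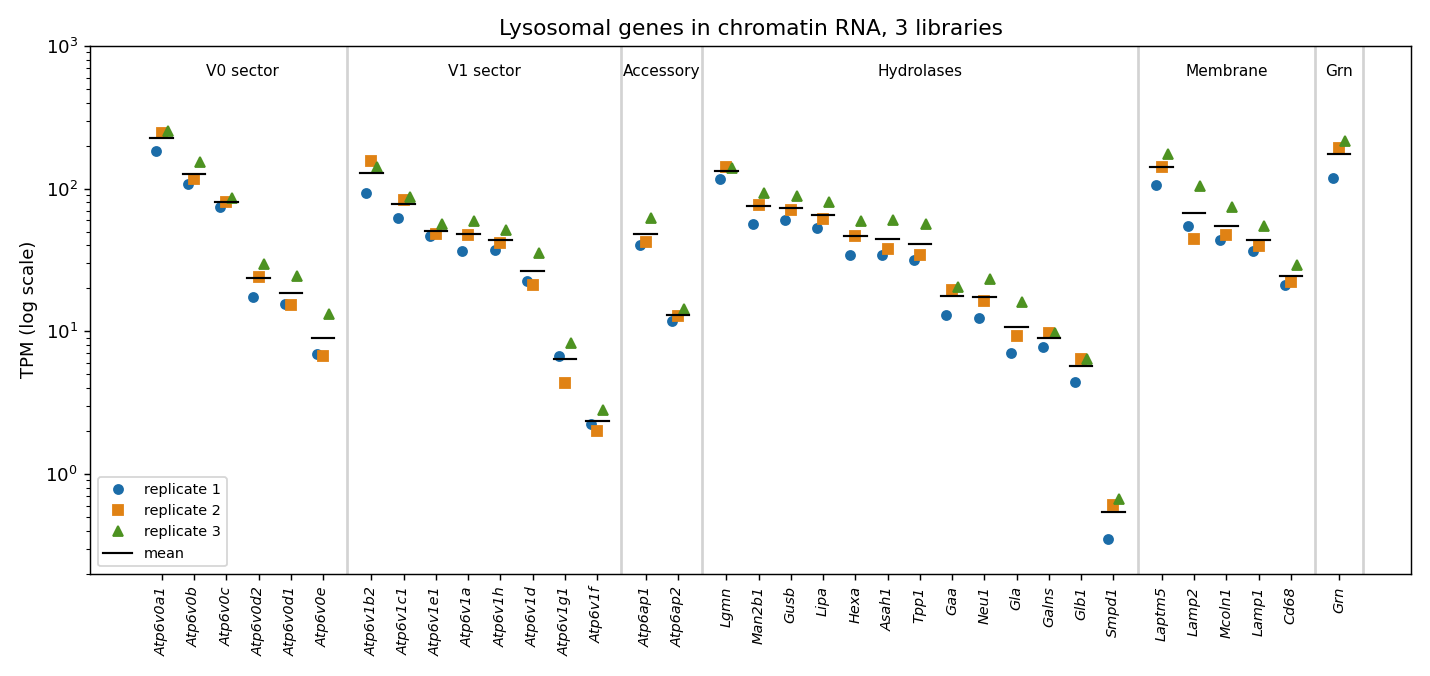
TPM on a log axis of each of the 35 genes in replicates 1, 2 and 3 (points) with the mean (bar), in blocks for the V0 sector, the V1 sector, the accessory subunits, the hydrolases, the membrane proteins and Grn. Means spread 25.4-fold within V0, 55.3-fold within V1, 243-fold within the hydrolases and 5.84-fold within the membrane proteins, and the 3 libraries of Lamp2 run from 44.4 to 104 TPM.

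The subunits of the pump work in fixed proportions in the assembled complex, yet their genes differed 97.2-fold on chromatin. The V0 sector was led by Atp6v0a1 (GRCm38 chromosome 11, 101009452 to 101063719, plus strand), an a subunit that forms the proton path with the ring. It had 184, 245 and 254 TPM in replicates 1, 2 and 3, the order used for every gene below (228 ± 37.9 TPM, SD, n = 3). This was the highest mean of the 35 and rank 70 of 22028 protein-coding genes. The ring proteins followed. Atp6v0b had 108, 118 and 153 TPM (126 ± 24.0 TPM, SD, n = 3). Atp6v0c had 74.5, 81.1 and 85.8 TPM (80.5 ± 5.66 TPM, SD, n = 3). In TPM, replicate 1 was the lowest and replicate 3 the highest for all 3 genes. Replicate 3 was also the highest in TPM for 12248 of 13985 genes, so its high place is mostly shared by all genes. In CPM, the count per library total scaled by TMM factors, replicate 3 was instead the lowest for all 3. There Atp6v0a1 had 685, 825 and 589, Atp6v0b 99.7, 93.3 and 78.1, and Atp6v0c 254, 249 and 167. Reads of Atp6v0c could be shared with 2 named processed pseudogenes, whose own means were 0 and 1.27 TPM.

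The other V0 subunits were lower. The d subunit joins the ring to the central stalk, and both of its genes were present. Atp6v0d2 had 17.3, 23.8 and 29.8 TPM (23.7 ± 6.25 TPM, SD, n = 3). Atp6v0d1 had 15.5, 15.4 and 24.4 TPM (18.4 ± 5.16 TPM, SD, n = 3). The ranges of the pair overlapped. Atp6v0e, a small membrane subunit, had 6.97, 6.76 and 13.2 TPM (8.97 ± 3.64 TPM, SD, n = 3), with replicate 3 apart from the others.

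In the V1 sector, A and B subunits alternate in the ring that binds ATP. Atp6v1b2, the B subunit (chromosome 8, 69088646 to 69113711, plus strand), had 92.6, 155 and 141 TPM (130 ± 32.9 TPM, SD, n = 3). Atp6v1a, the catalytic A subunit, had 36.4, 47.6 and 59.4 TPM (47.8 ± 11.5 TPM, SD, n = 3). The lowest library of Atp6v1b2 lay above the highest of Atp6v1a in TPM, although the complex holds equal numbers of A and B. In expected counts per kb of merged exons this order was not kept. Atp6v1a had 570, 525 and 463 there and Atp6v1b2 477, 567 and 380, so Atp6v1b2 was higher only in replicate 2. Retained-intron transcripts held 79.5% of the TPM of Atp6v1b2 and 46.3% of that of Atp6v1a.

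The peripheral stalks and their regulators came next. Atp6v1c1, the C subunit that helps join V1 to V0, had 62.5, 83.8 and 86.8 TPM (77.7 ± 13.3 TPM, SD, n = 3). Atp6v1e1, a stalk subunit, had 46.6, 48.1 and 56.4 TPM (50.3 ± 5.27 TPM, SD, n = 3). Atp6v1h, the H subunit, which silences ATP splitting in free V1, had 37.4, 41.9 and 51.4 TPM (43.6 ± 7.17 TPM, SD, n = 3). The E gene lay above the H gene in every library, although their ranges overlapped, and the C gene lay above both in every library. Atp6v1g1, the partner of Atp6v1e1 in the stalk, had only 6.66, 4.35 and 8.32 TPM (6.44 ± 1.99 TPM, SD, n = 3).

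The 2 rotor subunits were far apart. Atp6v1d, the D subunit, had 22.4, 21.3 and 35.2 TPM (26.3 ± 7.73 TPM, SD, n = 3). Atp6v1f, the F subunit, had 2.23, 2.01 and 2.79 TPM (2.34 ± 0.402 TPM, SD, n = 3), on 33, 20 and 18 expected counts. It was the lowest gene of the pump in every library. Of the accessory proteins that assist assembly, Atp6ap1 had 40.3, 42.2 and 62.6 TPM (48.4 ± 12.4 TPM, SD, n = 3). Atp6ap2, also known as the prorenin receptor, had 11.8, 12.8 and 14.3 TPM (13.0 ± 1.27 TPM, SD, n = 3), below Atp6ap1 in each library. The V1 sector median lay 0.06 above that of V0 on the log2 scale, but that difference was -0.20 in the second tables and -0.94 with counts per kb of merged exons.

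Several subunits can be made from more than 1 gene, and 10 further pump genes were examined beside the members. For the a subunit the members hold only Atp6v0a1, and Tcirg1, the a subunit gene known from osteoclasts and late endosomes, was higher. Tcirg1 had 449, 743 and 677 TPM (623 ± 154 TPM, SD, n = 3). It held 72.1% ± 2.28 of the TPM of the 4 a subunit genes, Atp6v0a1 held 26.7% ± 2.11 and Atp6v0a2 1.15% ± 0.252 (SD, n = 3 for each). Atp6v0a4, the kidney form, was listed at 0 counts in every library.

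The share of Atp6v0d2, the d form known from osteoclasts and macrophages, was 56.2% ± 4.13, against 43.8% ± 4.13 for the widely used Atp6v0d1 (SD, n = 3). Atp6v0d2 was the higher of the pair in 3 of 3 libraries of the gene tables. In the second tables, where both genes were over 2-fold higher, Atp6v0d2 had 37.3 TPM and Atp6v0d1 38.5 TPM in replicate 1, so the order there was turned. Of 8 osteoclast markers, 1 was detected, Nfatc1 at 10.5 TPM, and Calcr and Mmp9 were at 0 counts. The summed level of the 8 was 9.03, 8.93 and 18.1 TPM in replicates 1, 2 and 3, and the defining markers Ctsk and Acp5 averaged 0.85 and 0.153 TPM. Of the 8, 3 were detected in the second tables, where Ocstamp averaged 3.22 TPM, Ctsk 2.53 TPM and Acp5 1.60 TPM.

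For 4 more subunits, 1 gene held nearly all of the TPM. Atp6v1b2 held 99.4% ± 0.543 of the B subunit, Atp6v1c1 99.8% ± 0.0443 of the C subunit and Atp6v0e 99.5% ± 0.448 of the e subunit (SD, n = 3 for each). Atp6v1e1 held 100% of the E subunit, since Atp6v1e2, the testis form, was listed at 0 counts. In the second tables the share of Atp6v0e was 88.6%. The G subunit was mixed. Atp6v1g1 held 82.4%, 67.4% and 64.7% in replicates 1, 2 and 3, and Atp6v1g2, the form known from neurons, held the other 17.6%, 32.6% and 35.3% at a mean of 2.68 TPM. Atp6v1g3 was listed at 0 counts, and Rnasek, a further V0 protein, had 2.29 ± 0.965 TPM (SD, n = 3). Where a gene had 0 counts, up to 3 counts per library remain possible, which is 0.186, 0.185 and 0.242 CPM, a count per library total, in replicates 1, 2 and 3. These limits cover counting error only.

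**Figure D2:**
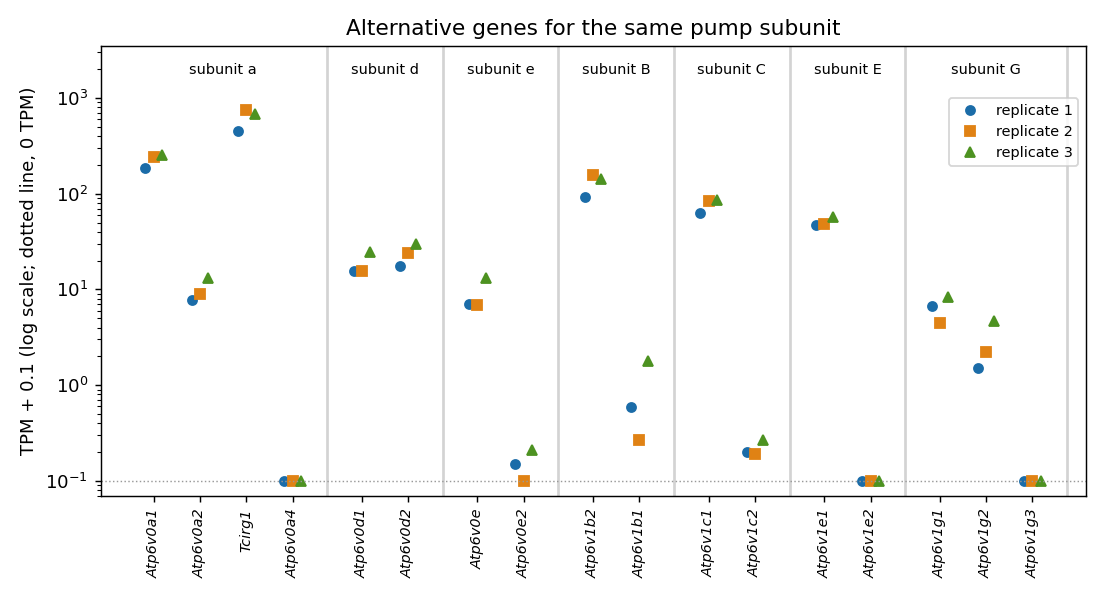
TPM plus 0.1 on a log axis for the genes that encode the same pump subunit, in replicates 1, 2 and 3 (points), with a dotted line at 0 TPM. Tcirg1 lies above Atp6v0a1 in all 3 libraries, and the B, C, E and e subunits each have 1 gene far above the other. Both d genes, Atp6v1g1 and Atp6v1g2 are present, and Atp6v1g3 lies at 0 TPM.

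Among the hydrolases, glycosidases, lipases and peptidases were spread over the whole range. Lgmn, an endopeptidase that cuts after asparagine (chromosome 12, 102394084 to 102439813, minus strand), was the highest, with 117, 141 and 139 TPM (132 ± 13.5 TPM, SD, n = 3). Tpp1, a tripeptidyl peptidase, had 31.8, 34.1 and 56.8 TPM (40.9 ± 13.8 TPM, SD, n = 3). Lgmn lay above Tpp1 in every library.

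Glycosidases act in turn on sugar chains. Man2b1, the acid alpha-mannosidase, had 56.8, 76.6 and 93.0 TPM (75.5 ± 18.1 TPM, SD, n = 3). Gusb, the beta-glucuronidase, had 60.3, 71.3 and 88.9 TPM (73.5 ± 14.4 TPM, SD, n = 3). These 2 did not differ beyond their spread. Hexa, the alpha chain of beta-hexosaminidase, had 34.2, 46.7 and 59.0 TPM (46.6 ± 12.4 TPM, SD, n = 3).

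Other glycosidases were lower. Gaa, which breaks down glycogen, had 13.0, 19.4 and 20.5 TPM (17.6 ± 4.04 TPM, SD, n = 3). Neu1, the sialidase, had 12.4, 16.4 and 23.1 TPM (17.3 ± 5.40 TPM, SD, n = 3). Both lay in the same range. Gla, the alpha-galactosidase, had 7.04, 9.32 and 16.02 TPM (10.8 ± 4.67 TPM, SD, n = 3). Glb1, the beta-galactosidase, had 4.41, 6.39 and 6.40 TPM (5.73 ± 1.15 TPM, SD, n = 3), and Gla lay above it in every library. Galns, a sulfatase of keratan sulfate, had 7.70, 9.69 and 9.72 TPM (9.04 ± 1.16 TPM, SD, n = 3). Glb1 shares its strand and 6172 bases with Tmppe, whose mean was 4.38 TPM, and Galns overlaps Gm20388, at a mean of 2.16 TPM, on the other strand over 33222 bases.

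The lipid hydrolases held both a high and the lowest member. Lipa, the acid lipase of cholesteryl esters, had 53.2, 61.3 and 80.4 TPM (64.9 ± 14.0 TPM, SD, n = 3). Asah1, the acid ceramidase, had 34.1, 38.0 and 59.9 TPM (44.0 ± 13.9 TPM, SD, n = 3). Smpd1, the acid sphingomyelinase (chromosome 7, 105554360 to 105558389, plus strand), had 0.350, 0.610 and 0.670 TPM (0.543 ± 0.170 TPM, SD, n = 3). It rested on 21, 28 and 20 expected counts, and the deposited credibility interval of its TPM ran from 0.263 to 0.914 in replicate 1. Its level was the lowest of the 35 genes in every library, and 0.531 TPM in the second tables.

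The membrane proteins had the narrowest range, 5.84-fold. Laptm5, a transmembrane protein of blood cells (chromosome 4, 130913125 to 130936141, plus strand), had 106, 142 and 176 TPM (142 ± 35.1 TPM, SD, n = 3). Lamp2 had 54.7, 44.4 and 104 TPM (67.6 ± 31.6 TPM, SD, n = 3), with replicate 3 above the others. Mcoln1, a cation channel that releases calcium from the lysosome, had 43.4, 47.0 and 74.7 TPM (55.0 ± 17.1 TPM, SD, n = 3). On the TPM scale Laptm5 was the highest of the class in each library. Lamp1, a main glycoprotein of the membrane, had 36.6, 39.5 and 54.8 TPM (43.6 ± 9.76 TPM, SD, n = 3). Cd68, a scavenger receptor relative of the Lamp proteins that marks macrophages, had 21.2, 22.3 and 29.2 TPM (24.2 ± 4.36 TPM, SD, n = 3), the lowest TPM of the class in each library. In expected counts per kb of merged exons both places changed. Cd68, at 473, 366 and 313, lay above Mcoln1, at 249, 194 and 206, in each library. Laptm5, at 434, 356 and 371, lay below Lamp1 (497) in replicate 1, Cd68 in replicate 2 and Lamp2 (403) in replicate 3. Grn, a secreted and lysosomal protein without enzyme activity (chromosome 11, 102430315 to 102437048, plus strand), had 118, 193 and 215 TPM (175 ± 50.8 TPM, SD, n = 3), the second highest mean of the 35.

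Unspliced and partly spliced RNA is counted in these tables only through annotated transcripts. The noncoding share is the share of a gene's TPM in transcripts of the types retained intron and processed transcript, the second of which lacks an open reading frame. Of the 35 genes, 28 have such transcripts. Their median share was 50.8%, close to the 48.1% of detected protein-coding genes with such transcripts. The classes differed: 12 pump genes had a median of 64.2%, 60.3% and 59.7% in replicates 1, 2 and 3, against 41.3%, 37.6% and 40.4% for 10 hydrolases. The 5 membrane proteins lay between, at 45.3%, 50.9% and 49.8%. Pump and hydrolase medians did not overlap between libraries, and the second tables gave 59.9% for the pump and 37.7% for the hydrolases. The number of annotated transcripts differs between genes, and its part in this difference was not tested.

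Neu1 had the highest noncoding share, 96.9%, 94.6% and 91.3% (94.3% ± 2.84, SD, n = 3). A single retained-intron transcript, Neu1-202, had 16.03 TPM, against 1.09 TPM for the coding Neu1-201. In the pump, Atp6v0c had 82.1% ± 2.26, Atp6v1b2 79.5% ± 2.40, Atp6v0a1 75.6% ± 2.36 and Atp6v1d 75.3% ± 1.51 (SD, n = 3 for each). For Atp6v0c this was mainly 1 processed transcript, Atp6v0c-205, at 62.4 ± 4.90 TPM, against 14.4 ± 2.44 TPM for the coding Atp6v0c-201 (SD, n = 3 for each). For Atp6v0a1 it was spread over several, and the coding Atp6v0a1-202 had 51.9 ± 12.1 TPM (SD, n = 3). Atp6v0b, the third highest pump gene, had a lower share of 30.5% ± 4.14 (SD, n = 3), all in retained introns.

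Laptm5, at 76.0% ± 3.25, and the hydrolase Tpp1, at 74.9% ± 4.52, also had high shares (SD, n = 3 for each). At the other end, Cd68 had 0.914% ± 1.58 (SD, n = 3) in the gene-table method, but 21.6% in the second tables. Galns had 0% and Gaa 15.9% ± 4.44 (SD, n = 3), but 20.8% and 27.8% in the second tables. In the gene-table method the transcript with the most TPM was coding for 22 genes, a retained intron for 9 and a processed transcript for 3. For Gusb it was one of the class degraded by nonsense-mediated decay, Gusb-206. The leading type of some genes changed in the second tables, in both directions. For Lgmn the retained intron Lgmn-203 had 109 TPM there and the coding Lgmn-201 86.9 TPM. For Atp6v1h the coding Atp6v1h-202 had 21.6 TPM and the retained intron Atp6v1h-206 13.2 TPM. Lamp2 has 3 coding transcripts that differ at their ends, and Lamp2-202 had 23.1 TPM, Lamp2-201 7.16 TPM and Lamp2-203 2.72 TPM. Lamp2-202 led in every library.

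**Figure D3:**
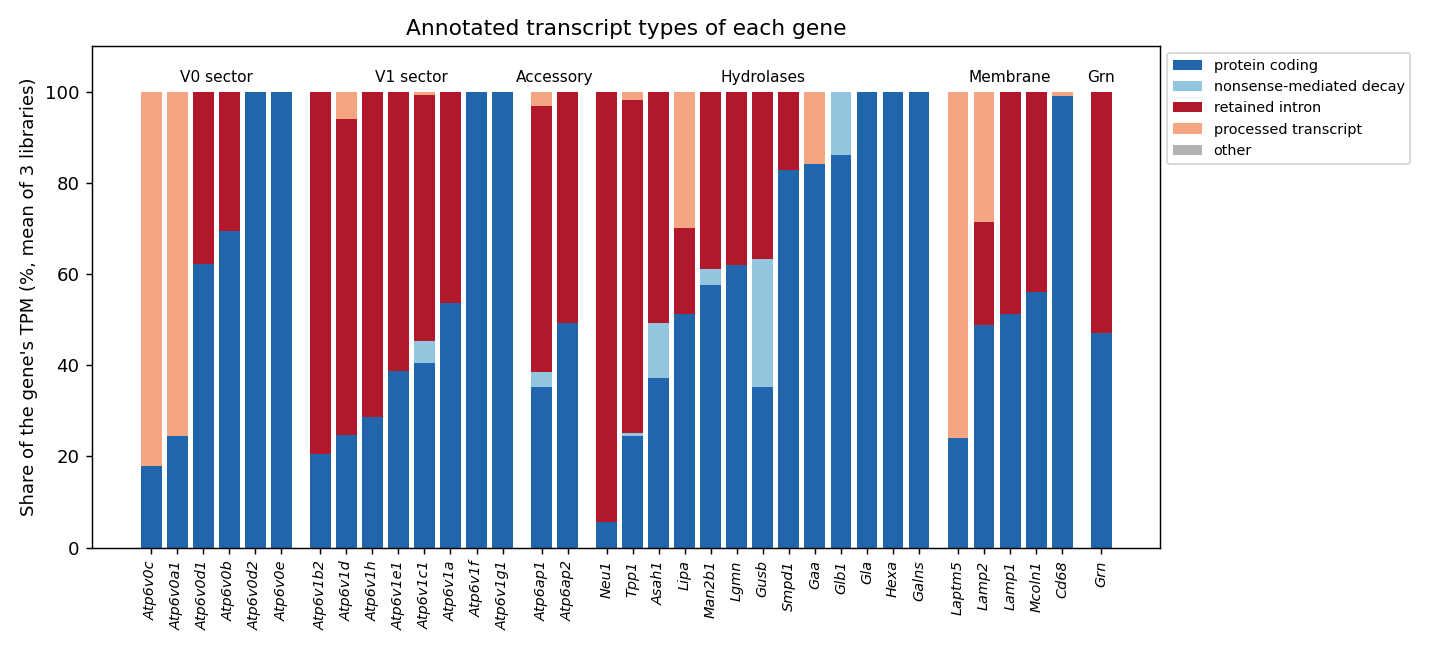
Share of each gene's TPM by annotated transcript type, as the mean of 3 libraries, with the genes of each block ordered by noncoding share. Retained-intron and processed transcripts fill most of the bars of Neu1, Atp6v0c, Atp6v1b2 and Laptm5, and 7 genes have no such transcript.

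The 7 genes with no annotated noncoding transcript were low. Their median was 8.97 TPM, against 49.3 TPM for the 28 that have one. Among detected protein-coding genes the medians were 4.98 TPM for 1488 genes without and 10.3 TPM for 7454 genes with such a transcript. In expected counts per kb of merged exons, the medians of those coding genes were close, 69.8 without and 76.0 with. The members' medians on that scale were 106 without and 386 with. Atp6v0e, Atp6v1f, Atp6v1g1, Glb1 and Gla are among the 7, and Hexa, at 46.6 TPM, is the highest of them.

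The second set of transcript tables gave higher TPM for 34 of the 35, the exception being Smpd1, and the median ratio was 1.69, against 1.54 for detected protein-coding genes. For 8 members it was over 2-fold. Gla had 49.0 ± 17.1 TPM there, 4.54 times its level in the gene tables (SD, n = 3). Atp6v1f had 6.16 ± 2.86 TPM, 2.63 times higher, and Atp6v0d1 42.5 ± 12.6 TPM, 2.31 times higher (SD, n = 3 for each). The other 5 were Atp6v0e, Atp6v1e1, Cd68, Atp6v0d2 and Asah1, at 2.02 to 2.22 times. Of detected protein-coding genes, 25.1% were also over 2-fold higher there. The cause of these gaps was not tested.

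The promoters of these genes were read for the TFEB palindrome because it is the sequence feature that the group is known for. RefSeq windows of 300 bases, 250 before the start and 50 from it on (GRCm38.p6), were found for 28 members and not for Atp6v0d2, Atp6v1b2, Atp6v1c1, Atp6v1g1, Atp6v1h, Galns and Asah1. CACGTG, which reads the same on both strands, occurred in 10 of the 28 (35.7%), and in 9.18% of 16522 protein-coding genes with a window. The longer palindrome TCACGTGA, which contains the shorter one, occurred in 5 of the 28 (17.9%), against 1.45% of protein-coding genes. Of all 32851 windows, 7.15% held CACGTG and 0.974% TCACGTGA. CACGTG was found in 4 of 11 pump genes, 4 of 11 hydrolases and 2 of 5 membrane proteins, and not in Grn. The following stretches, 5′ to 3′ on the strand of the gene, show it in capitals for 3 of the 4 genes with repeated copies and for 1 gene each with a single copy far from and close to the start.
Lamp1, chr8:13159080-13159160, plus strand: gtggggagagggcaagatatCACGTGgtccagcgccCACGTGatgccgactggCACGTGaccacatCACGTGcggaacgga
Gla, chrX:134601174-134601252, minus strand: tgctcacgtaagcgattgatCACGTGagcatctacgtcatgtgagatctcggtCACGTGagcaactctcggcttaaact
Atp6v0b, chr4:117887330-117887385, minus strand: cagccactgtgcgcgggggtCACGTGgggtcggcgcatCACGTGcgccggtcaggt
Gaa, chr11:119267803-119267848, plus strand: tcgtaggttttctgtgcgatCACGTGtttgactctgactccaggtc
Atp6v0d1, chr8:105566050-105566079, minus strand: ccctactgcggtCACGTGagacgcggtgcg
Lamp1 held 4 copies, whose first bases lay at -61, -45, -28 and -15 from the start site, and the copies of Gla lay at -227 and -194. Mcoln1, the fourth gene with repeated copies, is not printed, and its copies lay at -71 and -45. Those of Atp6v0b lay at -36 and -18, that of Gaa at -140 and that of Atp6v0d1 at -3. Members with the palindrome had a median of 31.0 TPM and the 18 with a window but without it 49.3 TPM. A match is a description of these letters and not a binding site, and absence says only that they are not in this window.

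Members kept much the same order in the libraries. Across the 35 genes, whose means span 419-fold, log2 TPM correlated between pairs of libraries with a Pearson's r of 0.986 to 0.992. Spearman's rho was 0.964 to 0.983, and both describe genes that share their libraries. The coefficient of variation between libraries, estimated by edgeR after scaling, had a median of 0.181 over the members and 0.198 over the 13985 genes for which it was estimated, and 25 members lay below 0.198. Many of those genes were at lower levels than the members. Over the 8913 detected protein-coding genes among them the median was 0.190. The 5 most variable members were Atp6v1g1 at 0.244, Atp6v0c and Atp6v1f at 0.212 each, and Lamp2 and Smpd1 at 0.211 each. In CPM scaled by TMM factors, Atp6v1g1 had 10.7, 5.88 and 7.32, Atp6v0c 254, 249 and 167, and Lamp2 253, 177 and 273 in replicates 1, 2 and 3. Atp6v1g1 and Lamp2 were lowest in replicate 2, and Atp6v0c in replicate 3.

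On that CPM scale replicate 3 was seldom the highest. The highest library was replicate 1 for 14 members, replicate 2 for 16 and replicate 3 for 5, while among all genes measured the shares were 28.8%, 35.6% and 35.6%. By class, the 16 pump genes split 10, 5 and 1, the 13 hydrolases 0, 10 and 3, and the 5 membrane proteins 4, 0 and 1. The median deviation from a gene's own mean log2 CPM was 0.13, 0.05 and -0.19 for the pump, -0.02, 0.18 and -0.14 for the hydrolases and 0.13, -0.06 and 0.00 for the membrane proteins. The same medians over all genes lay between -0.02 and 0.01. On the TPM scale, in contrast, replicate 3 was the highest for 33 of the 35, as for 12248 of the 13985 genes, so TPM differences between libraries are mostly shared by all genes. Library and starting amount cannot be told apart, since each amount has 1 library.

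**Figure D4:**
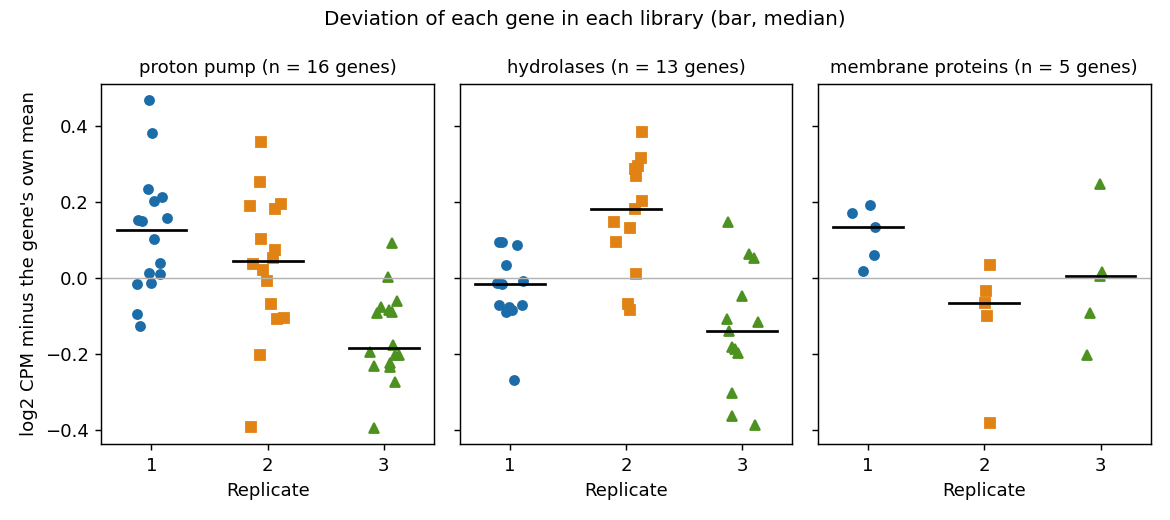
Deviation of log2 CPM from the gene's own mean in replicates 1, 2 and 3, for the pump, the hydrolases and the membrane proteins, 1 point a gene and the median as a bar. Hydrolases lie highest in replicate 2, with a median of 0.18, and pump genes lowest in replicate 3, with a median of -0.19.

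The libraries differ by label only in the amount of starting RNA, and a slope on its log2 was fitted by edgeR's quasi-likelihood test over 15065 genes, with Benjamini-Hochberg adjustment. Each gene has 1 residual degree of freedom. No member passed an adjusted p of 0.05 in either direction, and 0 of 35 had an unadjusted p under 0.05, in edgeR and in DESeq2 alike. Over all genes 0.551% were called higher and 0.0332% lower with more RNA. The lowest adjusted p was 0.769, for Atp6v1g1, with a slope of 0.42 log2 units per doubling of RNA, and member slopes ranged from -0.33 (Smpd1) to that value. Slopes were above 0 for 11 of 16 pump genes, 1 of 13 hydrolases and 5 of 5 membrane proteins, none of which was called, and for 6845 of 13985 genes overall. The median member slope was -0.25 without replicate 1 and 0.17 without replicate 2.

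Other lysosomal genes, on lists drawn up from their function with earlier results of these data known, had lower medians than the members. Each median was taken over all genes of a list, detected or not. Of the 10 further pump genes, most of them the alternative subunit genes above, 4 were detected and 3 were at 0 counts. The median of the 10 was 0.452 TPM. Of 24 further hydrolases and activators without the cathepsins, 22 were detected, with a median of 18.7 TPM. Psap, the precursor of the saposins that help lipid hydrolases, was the highest at 673 ± 86.0 TPM (SD, n = 3). Gm2a, the activator of ganglioside breakdown, was the lowest at 0.800 ± 0.115 TPM (SD, n = 3). Psap therefore lay above all 35 members.

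Of 18 further membrane proteins, 16 were detected, with a median of 14.4 TPM. Tpcn2, a cation channel, had 182 ± 39.0 TPM, Cln3, the Batten disease protein, 96.3 ± 16.7 TPM, and Laptm4b, a relative of Laptm5, 0.410 ± 0.180 TPM (SD, n = 3 for each). All 6 genes of lysosomal sorting were detected, with a median of 10.3 TPM. Gnptab, whose product starts the mannose phosphate tag of hydrolases, had 23.6 ± 7.56 TPM, M6pr, a receptor of that tag, 17.3 ± 6.51 TPM, and Sort1 3.62 ± 1.10 TPM (SD, n = 3 for each). Of 16 genes for TFEB, its relatives and mTORC1 signalling at the lysosome, 14 were detected, with a median of 20.2 TPM. Flcn and Fnip1, partners that control the Rag GTPases, led in the gene tables at 69.5 ± 15.4 and 52.3 ± 17.7 TPM (SD, n = 3 for each). Tfeb had 19.4 ± 0.915 TPM there, and Lamtor2, part of the Rag anchor, 0.940 ± 0.927 TPM (SD, n = 3 for each). In the second tables Tfeb averaged 82.0 TPM, between Flcn at 84.1 TPM and Fnip1 at 61.1 TPM. None of the genes on these lists, or of the 10 further pump genes, was called in the trend on starting RNA, among the 68 that edgeR's test held.

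The sources used here do not give whether reads were counted by strand, so 8 members that overlap a gene on the other strand cannot be fully told apart from it. Lamp1 overlaps Grtp1, at 9.59 TPM, over 3317 bases, and Atp6v1e1 overlaps Slc25a18, at 5.80 TPM, over 32 bases. Atp6v1b2 overlaps Slc18a1, at 5.08 TPM, over 590 bases.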

How the data were processed

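Per the file headers and the labels, the authors quantified each library of chromatin RNA against annotation M21 of mm10, without pooling replicates. The authors deposited expected counts and TPM per gene and per transcript, in columns like those of RSEM, and estimated counts and TPM per transcript in a second set of tables. Lower and upper credibility bounds of TPM were deposited as a signal column pair, at a level not given in the sources used here. Neither aligner, counters nor strandedness is given there. TPM is scaled over all entries, so abundant small RNAs lower every other gene, and short annotated isoforms raise the TPM of their gene.

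The members and lists, the comparisons and the rule for named genes (the highest 3 and lowest 2 of each class, accessory subunits, Grn, the 5 most variable, those over 2-fold apart between table kinds, and the highest 2 and lowest of each other list) were chosen with earlier results of these data known. Values of all members are given. One gene that the rule names on another list is not reported here. Identifiers were matched to GENCODE M21 on GRCm38, and rows that name no annotated gene, 1.08%, 0.299% and 0.332% of counts in replicates 1, 2 and 3, were left out. Medians per class were taken over mean TPM, with a pseudocount of 0.1 on the log2 scale. The trend used edgeR 4.0.16 (R 4.3.3) on rounded expected counts with TMM factors and filterByExpr, and was tested on simulated data. The simulated slopes were far steeper than any member slope, so they do not show whether slopes of the members' size would be called. Alternatives were pseudocounts of 1 and 0.01, other detection limits of 0.5 and 5 TPM, posterior mean TPM, the second tables, rescaling over coding genes, DESeq2 1.42.0, no filter and each replicate left out. Counts per kb and leaving out overlapped members were added after seeing the data. Promoters came from RefSeq. Python 3.11.15, pandas 2.3.3, numpy 2.4.6 and matplotlib 3.10.9 were used.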

Additional observations from a re-analysis of the deposited data

How the results depend on the processing

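Leaving out a replicate kept the direction of every class difference. The pump, hydrolase and membrane medians then ranged from 40.4 to 49.4, 33.0 to 45.5 and 45.2 to 60.9 TPM, the V1 minus V0 difference from 0.027 to 0.085 and the noncoding share of hydrolases from 38.3% to 40.7%. Rescaled over protein-coding genes, the class medians were 235 (pump), 207 (hydrolases) and 279 TPM (membrane proteins). The pump median was 71.2 TPM in the second tables and 21.03 TPM without members that overlap another gene or have a named pseudogene, a setting chosen after seeing the data. That setting leaves out Atp6v0a1, Atp6v1b2 and Atp6v0b, the pump genes with the highest means. The pump minus hydrolase difference was 0.54 in the second tables, 0.56 with means over members, -0.14 per kb of merged exons and -1.02 without overlapped members. For the pump minus membrane proteins it was 0.15 in the second tables, -0.74 with means and -1.54 without overlapped members. Membrane proteins minus hydrolases gave 0.38 in the second tables, 1.30 with means, 0.37 among members at or above 1 TPM, 0.038 per kb and 0.52 without overlapped members. V1 minus V0 gave -0.20 in the second tables, -0.68 with means, -0.94 per kb and 0.51 without overlapped members. With means over members, noncoding shares were 41.6% for hydrolases and 44.1% for membrane proteins. Beyond fewer members or another length in the settings that change these, the cause was not tested. The count of detected members stayed at 34, and was 31 at 5 TPM.

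No member was called in the trend under any setting with a test. Over all genes, 83 were higher and 5 lower with more RNA, 84 and 1 by DESeq2, 146 and 2 without scaling factors, 226 and 58 without a filter, and 143 and 15 in the second tables. With 2 libraries no residual degrees of freedom remain, and the median member slope of -0.01 was -0.25 without replicate 1 and 0.17 without replicate 2. No paired analysis was possible because there is 1 group. Members at low counts, Smpd1 and Atp6v1f, are limited by depth.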

Other observations

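Within the pump, genes with more exons or longer merged exons tended to have higher levels. Over the 16 pump genes, log2 TPM and the largest number of exons in a transcript had a Pearson's r of 0.74 and a Spearman's rho of 0.62, against 0.49 and 0.29 over the 13 hydrolases and 0.35 and 0.37 over the 8942 detected protein-coding genes. For the bases of merged exons these were 0.66 and 0.57 over the pump, 0.24 and 0.27 over the hydrolases and 0.34 and 0.34 over detected protein-coding genes. For the genomic span they were 0.24 and 0.06 over the pump, 0.36 and 0.28 over the hydrolases and 0.20 and 0.22 over detected protein-coding genes. These are descriptions across genes of the same libraries, and genes are not independent replicates. The lowest pump genes, Atp6v1f and Atp6v1g1, have 1063 and 1135 bases of merged exons, and Atp6v0a1, the highest, has 6556 bases and 22 exons.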
